A study of Mus musculus with 5 samples.

Results

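The genes described here are 39 genes of fat synthesis, fatty acid uptake and lipid droplets, taken by name from a list and looked up in every deposited count table. All 39 were present in each of the 3 tables, which hold 18307, 22194 and 24309 genes and 25872 different genes over all. The series used single-cell RNA sequencing with a droplet kit of 10x Genomics, in which captured RNA carries a molecular barcode, so that molecules are counted as unique molecular identifiers (UMIs). It holds 5 libraries of mouse tissue, 1 for each group. These are liver labelled DKO on an ApoE background, liver labelled WT on an ApoE background, liver labelled WT with no background named, aorta labelled DKO on an ApoE background, and aorta labelled WT on an ApoE background. They are called DKO-labelled, WT-labelled and plain WT-labelled from here on, where plain WT-labelled is the liver library with no background named. The title of the series names liver epsins and the protocol speaks of Liver-DKO mice, but the labels spell out neither the deleted genes nor what the ApoE background carries. Age, sex, diet and the promoter of any Cre are not given in the labels. The protocol gives n=3 without relating those mice to the libraries, and describes an isolation procedure for liver only.

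The liver makes fatty acids from surplus carbohydrate through cytosolic acetyl-CoA and malonyl-CoA, then elongates, desaturates and esterifies them to triglyceride. It also takes up fatty acids from blood, activates them to acyl-CoA, and stores triglyceride in droplets coated by perilipins and opened by lipases. SREBP-1c, encoded by Srebf1, and ChREBP, encoded by Mlxipl, are the main transcription factors known to raise the synthesis genes after feeding.

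The libraries held 4331 cells each (10999072 UMIs labelled DKO, 9497896 labelled WT) for liver on the ApoE background, 616 cells (1883798 UMIs) for plain WT-labelled liver, and 2800 cells each (6228458 UMIs labelled DKO, 6383082 labelled WT) for aorta. Hepatocytes were the cells the authors name so, without clusters 14, 16 and 18 of the ApoE liver table and cluster 2 of the other. Those clusters were led by erythroid, pancreatic acinar, cholangiocyte and haemoglobin genes. This left 3213 DKO-labelled, 4015 WT-labelled and 505 plain WT-labelled hepatocytes, with all 12 hepatocyte markers detected in each and their summed level at 81371, 92428 and 89001 CPM (UMIs per 10⁶ UMIs of the class). Cluster 2 held the most DKO-labelled hepatocytes (791), cluster 3 the most WT-labelled ones (663), and cluster 0 of the other table the most plain WT-labelled ones (244). Epn1, an epsin gene, stood at 71.2 CPM (652 UMIs) in DKO-labelled and 58.7 CPM (515 UMIs) in WT-labelled hepatocytes, a ratio of 1.21 (95% interval 1.08 to 1.36). Epn2, another epsin gene, had 79 UMIs in DKO-labelled and 67 UMIs in WT-labelled hepatocytes, a ratio of 1.13 (0.805 to 1.59). Neither was lower in the library labelled DKO, although the deleted exons are not given and tags outside them could not show a deletion. Apoe stood at 32.7 CPM in DKO-labelled, 36.3 CPM in WT-labelled and 52.8 CPM in plain WT-labelled hepatocytes.

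With 1 library per group no difference has a replicate check and none was tested. All intervals are 95% and cover counting error only. A gene is called higher or lower where the ratio of its CPM was at or past the set fold with at least 50 UMIs over both libraries. The set fold is a ratio of 0.8 or below for lower and, for higher, 0.8 or below of the inverse ratio. Levels are UMI counts, not corrected for transcript length, so they are set beside each other between groups and not between genes.

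The first comparison asked how liver cells labelled DKO differ from those labelled WT on the shared ApoE background. Of the 39 genes, 34 had enough UMIs in hepatocytes. Fads2, a desaturase of polyunsaturated fatty acids, was higher past the set fold and G0s2, an inhibitor of the main droplet lipase, was lower past it. In the class total the other 32 stayed within the set fold, while single clusters held more members past it. Over all 9629 genes with enough UMIs, 12.9% were higher and 12.5% were lower past the same fold. The median log2 ratio was 0.042 for the 34 members and 0.0046 for all genes, with 21 members above a ratio of 1 and 13 below it. The call of Fads2 rests on a narrow margin, since its ratio was 1.24 with every hepatocyte of the authors and 1.19 with cells weighted alike, both within the set fold.

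**Figure D1:**
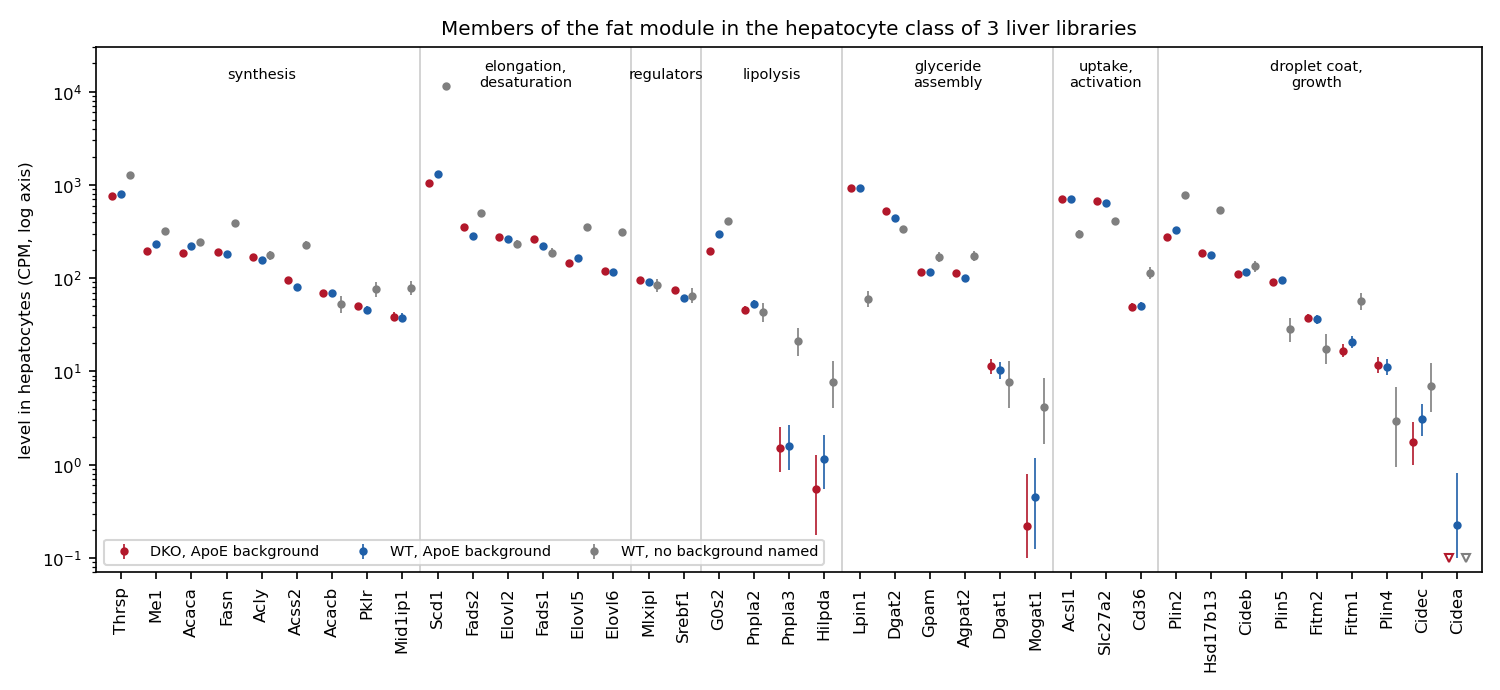
Level of each member in the hepatocyte class of 3 liver libraries, in CPM on a log axis, grouped by role; points are class totals, bars 95% Poisson intervals and open triangles levels of 0. DKO-labelled and WT-labelled points lie close together for most members, while Scd1 (1054 CPM DKO-labelled, 1293 CPM WT-labelled, 11454 CPM plain WT-labelled) and Lpin1 (918 CPM DKO-labelled, 933 CPM WT-labelled, 60.4 CPM plain WT-labelled) stand apart in plain WT-labelled hepatocytes.

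Among the enzymes that supply acetyl-CoA and build the fatty acid chain, levels were close in both libraries. Fasn, the fatty acid synthase, stood at 190.5 CPM (1745 UMIs) in DKO-labelled hepatocytes and 181 CPM (1590 UMIs) in WT-labelled hepatocytes, a ratio of 1.05 (0.981 to 1.13). Acaca, the acetyl-CoA carboxylase that makes malonyl-CoA for synthesis, stood at 188 CPM (1718 UMIs) in DKO-labelled hepatocytes and 220.1 CPM (1930 UMIs) in WT-labelled hepatocytes, a ratio of 0.852 (0.798 to 0.910). Acacb, the carboxylase at the mitochondrion whose malonyl-CoA restrains oxidation, stood at 69.7 CPM (639 UMIs) in DKO-labelled hepatocytes and 68.9 CPM (604 UMIs) in WT-labelled hepatocytes, a ratio of 1.01 (0.905 to 1.13). Of these, Acaca was the one with an interval below 1, by less than the set fold. Acly, which cuts citrate to cytosolic acetyl-CoA, stood at 167 CPM (1526 UMIs) in DKO-labelled hepatocytes and 155 CPM (1357 UMIs) in WT-labelled hepatocytes, a ratio of 1.08 (0.9999 to 1.16). Acss2, which makes acetyl-CoA from acetate, stood at 96.6 CPM (885 UMIs) in DKO-labelled hepatocytes and 81.3 CPM (713 UMIs) in WT-labelled hepatocytes, a ratio of 1.19 (1.08 to 1.31). Acss2 was above 1 in all 9 clusters that could be compared, from 1.01 in cluster 8 to 1.65 in cluster 6. Me1, the malic enzyme that supplies NADPH, stood at 195 CPM (1791 UMIs) in DKO-labelled hepatocytes and 230.0 CPM (2017 UMIs) in WT-labelled hepatocytes, a ratio of 0.850 (0.797 to 0.906). Pklr, the pyruvate kinase of the liver, stood at 49.99 CPM (458 UMIs) in DKO-labelled hepatocytes and 45.2 CPM (396 UMIs) in WT-labelled hepatocytes, a ratio of 1.11 (0.966 to 1.27). None of these enzymes reached the set fold.

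The elongases and desaturases lay on both sides of 1. Fads2 stood at 353 CPM (3233 UMIs) in DKO-labelled hepatocytes and 281 CPM (2461 UMIs) in WT-labelled hepatocytes, a ratio of 1.26 (1.19 to 1.33). Fads1, the desaturase that follows it in the polyunsaturated pathway, stood at 266 CPM (2435 UMIs) in DKO-labelled hepatocytes and 221 CPM (1936 UMIs) in WT-labelled hepatocytes, a ratio of 1.20 (1.13 to 1.28). Fads2 was above 1 in 8 of 9 clusters, from 0.987 in cluster 6 to 1.53 in cluster 1, and Fads1 in 7 of 9. Scd1, which makes monounsaturated fatty acids, stood at 1054 CPM (9652 UMIs) in DKO-labelled hepatocytes and 1293 CPM (11338 UMIs) in WT-labelled hepatocytes, a ratio of 0.815 (0.793 to 0.837). It was below 1 in 8 of 9 clusters, from 0.648 in cluster 2 to 1.02 in cluster 0. Fads1 and Fads2 were thus on the other side of 1 from Scd1. Elovl6, which elongates palmitate, stood at 120.3 CPM (1102 UMIs) in DKO-labelled hepatocytes and 116 CPM (1014 UMIs) in WT-labelled hepatocytes, a ratio of 1.04 (0.954 to 1.13). Elovl5, an elongase of polyunsaturated fatty acids, stood at 145 CPM (1330 UMIs) in DKO-labelled hepatocytes and 165 CPM (1447 UMIs) in WT-labelled hepatocytes, a ratio of 0.880 (0.816 to 0.949). Elovl2, which acts on longer ones, stood at 274 CPM (2510 UMIs) in DKO-labelled hepatocytes and 265 CPM (2324 UMIs) in WT-labelled hepatocytes, a ratio of 1.03 (0.977 to 1.09). Thus Fads1 and Fads2 had intervals above 1, and Scd1 and Elovl5 had intervals below 1. Of these, only Fads2 was past the set fold.

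The regulators stayed within the set fold. Srebf1 stood at 74.1 CPM (679 UMIs) in DKO-labelled hepatocytes and 61.2 CPM (537 UMIs) in WT-labelled hepatocytes, a ratio of 1.21 (1.08 to 1.36). Mlxipl stood at 95.5 CPM (875 UMIs) in DKO-labelled hepatocytes and 90.8 CPM (796 UMIs) in WT-labelled hepatocytes, a ratio of 1.05 (0.955 to 1.16). Thrsp, a nuclear protein that responds to thyroid hormone and carbohydrate, stood at 759.7 CPM (6960 UMIs) in DKO-labelled hepatocytes and 799 CPM (7005 UMIs) in WT-labelled hepatocytes, a ratio of 0.951 (0.920 to 0.983). Mid1ip1, its relative that activates acetyl-CoA carboxylase, is known to act on the protein rather than the gene. Its RNA stood at 38.6 CPM (354 UMIs) in DKO-labelled hepatocytes and 37.5 CPM (329 UMIs) in WT-labelled hepatocytes, a ratio of 1.03 (0.884 to 1.20). Srebf1 had the largest ratio of the regulators, and it did not reach the set fold. Its ratio was above 1 in 7 of the 8 clusters that could be compared, from 0.957 in cluster 7 to 1.48 in cluster 3.

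Of the enzymes that assemble triglyceride, Dgat2 and Agpat2 had intervals above 1. Gpam, which starts assembly on glycerol phosphate, stood at 116 CPM (1062 UMIs) in DKO-labelled hepatocytes and 115 CPM (1008 UMIs) in WT-labelled hepatocytes, a ratio of 1.01 (0.924 to 1.10). Agpat2, which adds the next acyl chain, stood at 114 CPM (1044 UMIs) in DKO-labelled hepatocytes and 101 CPM (884 UMIs) in WT-labelled hepatocytes, a ratio of 1.13 (1.03 to 1.24). Lpin1, the phosphatase that makes diacylglycerol, stood at 918 CPM (8411 UMIs) in DKO-labelled hepatocytes and 933 CPM (8182 UMIs) in WT-labelled hepatocytes, a ratio of 0.984 (0.954 to 1.01). Dgat1 and Dgat2 catalyse the last step by unrelated proteins. Dgat1 stood at 11.4 CPM (104 UMIs) in DKO-labelled hepatocytes and 10.3 CPM (90 UMIs) in WT-labelled hepatocytes, a ratio of 1.11 (0.826 to 1.48). Dgat2 stood at 520.0 CPM (4764 UMIs) in DKO-labelled hepatocytes and 439.9 CPM (3858 UMIs) in WT-labelled hepatocytes, a ratio of 1.18 (1.13 to 1.23). Mogat1, an acyltransferase of monoacylglycerol, had 2 UMIs in DKO-labelled and 4 UMIs in WT-labelled hepatocytes, too few to compare.

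Uptake and activation genes were within 1.1-fold. Cd36, a fatty acid transporter of the cell surface, stood at 49.0 CPM (449 UMIs) in DKO-labelled hepatocytes and 50.5 CPM (443 UMIs) in WT-labelled hepatocytes, a ratio of 0.970 (0.849 to 1.11). Slc27a2, a fatty acid transporter and acyl-CoA synthetase of the liver, stood at 674 CPM (6172 UMIs) in DKO-labelled hepatocytes and 631 CPM (5531 UMIs) in WT-labelled hepatocytes, a ratio of 1.07 (1.03 to 1.11). Acsl1, the main long-chain acyl-CoA synthetase, stood at 709.6 CPM (6501 UMIs) in DKO-labelled hepatocytes and 697 CPM (6116 UMIs) in WT-labelled hepatocytes, a ratio of 1.02 (0.982 to 1.05).

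Droplet coat genes were at or below a ratio of about 1. Plin2, the perilipin that coats hepatocyte droplets, stood at 279 CPM (2555 UMIs) in DKO-labelled hepatocytes and 326 CPM (2862 UMIs) in WT-labelled hepatocytes, a ratio of 0.855 (0.810 to 0.902). Plin2 was below 1 in 8 of 9 clusters, from 0.726 in cluster 8 to 1.01 in cluster 2. Plin5, which links droplets to mitochondria, stood at 90.2 CPM (826 UMIs) in DKO-labelled hepatocytes and 95.1 CPM (834 UMIs) in WT-labelled hepatocytes, a ratio of 0.948 (0.860 to 1.05). Plin4, another coat protein, stood at 11.8 CPM (108 UMIs) in DKO-labelled hepatocytes and 11.3 CPM (99 UMIs) in WT-labelled hepatocytes, a ratio of 1.04 (0.788 to 1.39). None of the perilipins reached the set fold. Cideb, a droplet and lipoprotein factor of hepatocytes, stood at 111 CPM (1016 UMIs) in DKO-labelled hepatocytes and 116 CPM (1021 UMIs) in WT-labelled hepatocytes, a ratio of 0.953 (0.872 to 1.04). Its relatives were rarely counted, with 0 and 2 UMIs of Cidea and 16 and 27 UMIs of Cidec in DKO-labelled and WT-labelled hepatocytes. Hsd17b13, a droplet protein of hepatocytes, stood at 187 CPM (1714 UMIs) in DKO-labelled hepatocytes and 179 CPM (1569 UMIs) in WT-labelled hepatocytes, a ratio of 1.05 (0.976 to 1.12). Fitm1 and Fitm2 partition triglyceride into droplets at the endoplasmic reticulum. Fitm1 stood at 16.7 CPM (153 UMIs) in DKO-labelled hepatocytes and 20.8 CPM (182 UMIs) in WT-labelled hepatocytes, a ratio of 0.805 (0.645 to 1.003). Fitm2 stood at 37.4 CPM (343 UMIs) in DKO-labelled hepatocytes and 36.4 CPM (319 UMIs) in WT-labelled hepatocytes, a ratio of 1.03 (0.881 to 1.20).

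Of the members with at least 50 UMIs, the lowest ratio belonged to a gene of droplet lipolysis. G0s2 stood at 197 CPM (1804 UMIs) in DKO-labelled hepatocytes and 297 CPM (2603 UMIs) in WT-labelled hepatocytes, a ratio of 0.663 (0.624 to 0.705). It was below 1 in 8 of 9 clusters, from 0.497 in cluster 3 to 1.07 in cluster 5, the cluster led by Glul. Pnpla2, the adipose triglyceride lipase that G0s2 inhibits, stood at 46.1 CPM (422 UMIs) in DKO-labelled hepatocytes and 53.4 CPM (468 UMIs) in WT-labelled hepatocytes, a ratio of 0.863 (0.755 to 0.987). Pnpla3, a droplet protein whose human variant is linked to fatty liver, had 14 UMIs in each library. Hilpda, another inhibitor of Pnpla2, had 5 UMIs in DKO-labelled and 10 UMIs in WT-labelled hepatocytes. G0s2 lies on chromosome 1 at 193272161 to 193273217 on the minus strand (GENCODE M21, GRCm38) and overlaps Lamb3 on the other strand. The sources used here do not give whether the authors counted by strand, and 21 of the 39 members overlap a gene on the opposite strand.

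**Figure D2:**
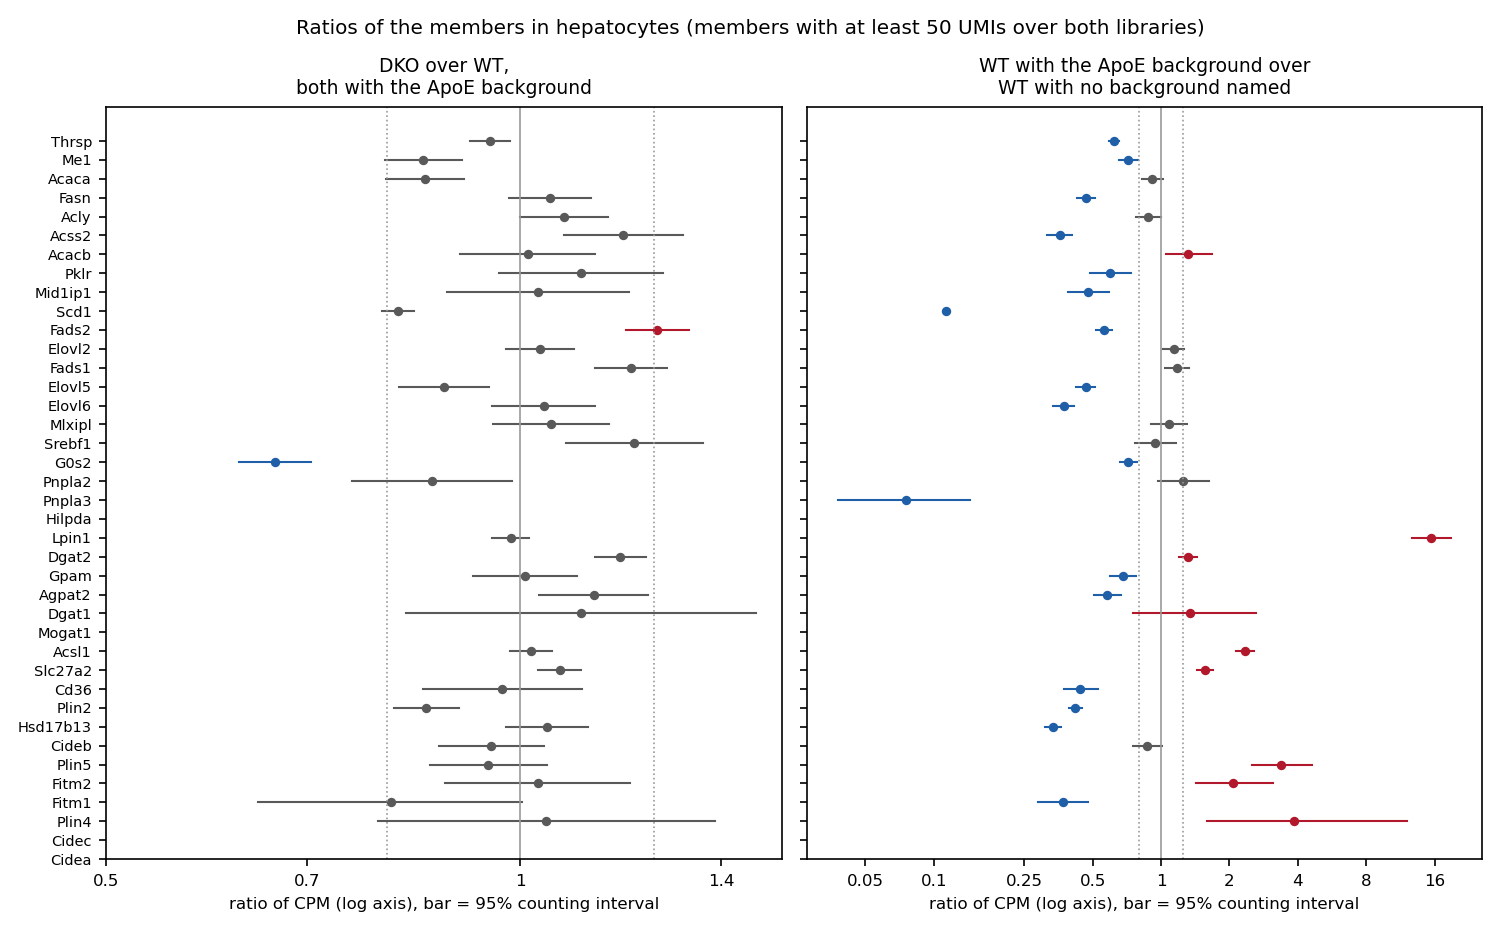
Ratio of CPM for each member with at least 50 UMIs over both libraries, DKO over WT on the ApoE background (left) and WT with the ApoE background over WT with no background named (right), on log axes with 95% counting intervals; dotted lines mark 0.8 and its inverse. Fads2 (1.26) and G0s2 (0.663) lie outside the dotted lines on the left, and 27 members lie outside them on the right.

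Other features of the hepatocyte classes differed alongside these values. Mitochondrial genes took 11.4% of the UMIs of DKO-labelled and 7.98% of those of WT-labelled hepatocytes. The 7 erythroid markers summed to 118 CPM in DKO-labelled hepatocytes and to 14.0 CPM in WT-labelled ones, and Slc4a1 was at 0 in both. The 13 acinar markers in the table were all detected and summed to 80.1 CPM in DKO-labelled and 183 CPM in WT-labelled hepatocytes. Macrophage markers summed to 2.07 CPM with 6 of 11 at 0, including Adgre1, C1qb, C1qc and Marco, in DKO-labelled hepatocytes and to 6.84 CPM with none at 0 in WT-labelled ones. The part of the erythroid, acinar and mitochondrial differences in the ratios above was not tested. With the total taken without mitochondrial genes, Gm42418, AY036118, haemoglobin genes and major urinary protein genes, 3 members were higher and 1 was lower past the set fold, against 18.7% and 8.96% of all genes.

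Counts in single hepatocyte clusters differed from those of the class total. In cluster 8, 0 of 31 members were higher and 11 were lower past the set fold, where 11.6% and 17.6% of 5934 genes were. In cluster 5, 1 of 32 was higher and 8 were lower, where 18.5% and 15.4% of 5550 genes were. In cluster 7, 1 of 32 was higher and 3 were lower, where 16.0% and 16.3% of 5928 genes were. In cluster 0, 9 of 30 were higher and 6 were lower, where 23.6% and 19.3% of 3181 genes were. In cluster 1, 7 of 30 were higher and 4 were lower (all genes 25.8% and 22.3%). In cluster 2, 4 of 28 were higher and 3 were lower (18.0% and 28.1%). In cluster 3, 4 of 29 were higher and 5 were lower (15.3% and 31.2%). In cluster 4, 6 of 31 were higher and 7 were lower (14.5% and 31.4%). In cluster 6, 5 of 23 were higher and 8 were lower (14.4% and 40.7%). The class total also depends on how cells fall over clusters, since cluster 5 held 12.6% of DKO-labelled and 7.55% of WT-labelled hepatocytes, cluster 7 held 14.4% and 5.33%, and cluster 8 held 10.2% and 6.80%.

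Scd1 was lower past the set fold in all 3 of clusters 5, 7 and 8. It stood at 850.5 CPM (1470 UMIs) in DKO-labelled and 1188 CPM (1556 UMIs) in WT-labelled cells of cluster 5, a ratio of 0.716 (0.666 to 0.769). It stood at 1440.1 CPM (3453 UMIs) in DKO-labelled and 1936 CPM (2166 UMIs) in WT-labelled cells of cluster 7, a ratio of 0.744 (0.705 to 0.785). It stood at 987 CPM (1829 UMIs) in DKO-labelled and 1379.7 CPM (1798 UMIs) in WT-labelled cells of cluster 8, a ratio of 0.716 (0.670 to 0.764). Acaca and Acly, which supply the synthase, were lower in clusters 5 and 8, Acaca with ratios of 0.634 (0.495 to 0.811) and 0.753 (0.658 to 0.862) and Acly with ratios of 0.633 (0.449 to 0.889) and 0.700 (0.580 to 0.846). Me1 was lower in clusters 5 and 7, with ratios of 0.689 (0.566 to 0.838) and 0.793 (0.688 to 0.915). Hsd17b13 was lower in clusters 5 and 8, with ratios of 0.562 (0.375 to 0.836) and 0.768 (0.626 to 0.942). In cluster 8, and in neither of the other two, Fasn, at 0.766 (0.645 to 0.910), Elovl5, at 0.774 (0.654 to 0.917), Thrsp, at 0.756 (0.694 to 0.825), Plin2, at 0.726 (0.629 to 0.838), G0s2, at 0.738 (0.617 to 0.882), and Pnpla2, at 0.547 (0.379 to 0.787), were lower past the set fold. Fitm2 had a ratio of 0.732 (0.538 to 0.996) in cluster 5 and Plin5 of 0.739 (0.588 to 0.932) in cluster 7. Cd36 had a ratio of 0.682 (0.507 to 0.916) in cluster 5 and 1.62 (1.18 to 2.24) in cluster 7. The other members past the set fold in these 3 clusters had intervals that held 1. Srebf1 was higher in cluster 5, at 65.4 CPM (113 UMIs) in DKO-labelled and 48.9 CPM (64 UMIs) in WT-labelled cells. Mid1ip1 in cluster 5, with a ratio of 0.708, and Pklr in cluster 8, with a ratio of 0.704, were lower.

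A list of 54 other genes of the pathway was counted in the same way, and 40 of its 50 members in the table had enough UMIs. Past the set fold, 3 were higher and 2 were lower. Pgd, an NADPH-producing enzyme, stood at 19.5 CPM (179 UMIs) in DKO-labelled hepatocytes and 14.5 CPM (127 UMIs) in WT-labelled hepatocytes, a ratio of 1.35 (1.07 to 1.71). Scap, the escort protein of SREBP, stood at 32.2 CPM (295 UMIs) in DKO-labelled hepatocytes and 24.4 CPM (214 UMIs) in WT-labelled hepatocytes, a ratio of 1.32 (1.10 to 1.58). Plin3, a widely expressed perilipin, stood at 21.5 CPM (197 UMIs) in DKO-labelled hepatocytes and 16.9 CPM (148 UMIs) in WT-labelled hepatocytes, a ratio of 1.27 (1.02 to 1.59). The lowest ratios belonged to genes of fatty acid binding, transport and elongation. Fabp2, the intestinal-type fatty acid binding protein, stood at 104 CPM (951 UMIs) in DKO-labelled hepatocytes and 163 CPM (1431 UMIs) in WT-labelled hepatocytes, a ratio of 0.636 (0.585 to 0.691). Slc27a1, a fatty acid transporter, stood at 2.40 CPM (22 UMIs) in DKO-labelled hepatocytes and 3.76 CPM (33 UMIs) in WT-labelled hepatocytes, a ratio of 0.638 (0.354 to 1.13). Hacd3, a dehydratase of chain elongation, stood at 106 CPM (974 UMIs) in DKO-labelled hepatocytes and 130.2 CPM (1142 UMIs) in WT-labelled hepatocytes, a ratio of 0.816 (0.749 to 0.890), within the set fold.

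The second comparison set WT-labelled hepatocytes with the ApoE background against plain WT-labelled hepatocytes. It showed much larger differences. Lpin1, Slc27a2, Acsl1, Plin5 and Plin4 were higher with the ApoE background, Lpin1 by 15.4-fold. Scd1, Pnpla3, Hsd17b13, Acss2, Elovl6, Plin2 and Fasn were lower, Scd1 to 0.113 of the plain WT-labelled level. Past the set fold, 9 of 35 members were higher and 18 were lower, where 30.3% and 33.0% of all 8753 genes were. The median log2 ratio was −0.48 for the members and −0.014 for all genes. The libraries were deposited in separate tables and also differ in size, in hepatocyte depth (a median of 1536 UMIs per cell with the ApoE background and 2989 without) and in mitochondrial share (7.98% and 4.01%). The background therefore cannot be told apart from anything else that differs between them. UMIs of WT-labelled hepatocytes are those given above.

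Synthesis enzymes were split. Fasn stood at 181 CPM in WT-labelled hepatocytes and 387 CPM (660 UMIs) in plain WT-labelled hepatocytes, a ratio of 0.468 (0.427 to 0.514). Acss2 stood at 81.3 CPM in WT-labelled hepatocytes and 228 CPM (388 UMIs) in plain WT-labelled hepatocytes, a ratio of 0.357 (0.315 to 0.405). Pklr stood at 45.2 CPM in WT-labelled hepatocytes and 75.7 CPM (129 UMIs) in plain WT-labelled hepatocytes, a ratio of 0.597 (0.488 to 0.734). These were lower with the ApoE background, as was Me1 to a smaller degree. Me1 stood at 230.0 CPM in WT-labelled hepatocytes and 320.2 CPM (546 UMIs) in plain WT-labelled hepatocytes, a ratio of 0.718 (0.653 to 0.791). Acly stood at 155 CPM in WT-labelled hepatocytes and 177 CPM (301 UMIs) in plain WT-labelled hepatocytes, a ratio of 0.877 (0.773 to 0.996). Acaca stood at 220.1 CPM in WT-labelled hepatocytes and 241 CPM (411 UMIs) in plain WT-labelled hepatocytes, a ratio of 0.913 (0.820 to 1.02). Acly and Acaca remained within the set fold, and Acacb was on the higher side. Acacb stood at 68.9 CPM in WT-labelled hepatocytes and 52.2 CPM (89 UMIs) in plain WT-labelled hepatocytes, a ratio of 1.32 (1.05 to 1.67).

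The largest difference in CPM of the list belonged to a desaturase. Scd1, on chromosome 19 at 44394455 to 44407879 on the minus strand (GENCODE M21, GRCm38), stood at 1293 CPM in WT-labelled hepatocytes and 11454 CPM (19531 UMIs) in plain WT-labelled hepatocytes, a ratio of 0.113 (0.110 to 0.116). Elovl6 stood at 116 CPM in WT-labelled hepatocytes and 311 CPM (530 UMIs) in plain WT-labelled hepatocytes, a ratio of 0.372 (0.335 to 0.414). Elovl5 stood at 165 CPM in WT-labelled hepatocytes and 354 CPM (603 UMIs) in plain WT-labelled hepatocytes, a ratio of 0.467 (0.424 to 0.514). All 3 were lower with the ApoE background, as was Fads2. Fads2 stood at 281 CPM in WT-labelled hepatocytes and 501 CPM (854 UMIs) in plain WT-labelled hepatocytes, a ratio of 0.560 (0.518 to 0.606). Fads1 stood at 221 CPM in WT-labelled hepatocytes and 188 CPM (320 UMIs) in plain WT-labelled hepatocytes, a ratio of 1.18 (1.04 to 1.33). Elovl2 stood at 265 CPM in WT-labelled hepatocytes and 233 CPM (398 UMIs) in plain WT-labelled hepatocytes, a ratio of 1.14 (1.02 to 1.27). Fads1 and Elovl2 thus stayed within the set fold on the higher side while their pathway partners were lower.

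The transcription factor genes differed little. Srebf1 stood at 61.2 CPM in WT-labelled hepatocytes and 65.1 CPM (111 UMIs) in plain WT-labelled hepatocytes, a ratio of 0.941 (0.765 to 1.16). Mlxipl stood at 90.8 CPM in WT-labelled hepatocytes and 83.9 CPM (143 UMIs) in plain WT-labelled hepatocytes, a ratio of 1.08 (0.905 to 1.30). Both were within 1.1-fold, beside lower RNA of several genes they are known to activate. Thrsp stood at 799 CPM in WT-labelled hepatocytes and 1285 CPM (2191 UMIs) in plain WT-labelled hepatocytes, a ratio of 0.622 (0.592 to 0.652). Mid1ip1 stood at 37.5 CPM in WT-labelled hepatocytes and 78.6 CPM (134 UMIs) in plain WT-labelled hepatocytes, a ratio of 0.477 (0.389 to 0.588). These were lower with the ApoE background.

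Assembly of triglyceride was led by Lpin1. Lpin1, on chromosome 12 at 16535669 to 16610966 on the minus strand (GENCODE M21, GRCm38), stood at 933 CPM in WT-labelled hepatocytes and 60.4 CPM (103 UMIs) in plain WT-labelled hepatocytes, a ratio of 15.4 (12.7 to 18.9). Lpin1 protein is a phosphatase in the cytosol and a transcriptional coactivator in the nucleus, and its RNA in liver is known to rise on fasting. Dgat2 stood at 439.9 CPM in WT-labelled hepatocytes and 335 CPM (571 UMIs) in plain WT-labelled hepatocytes, a ratio of 1.31 (1.20 to 1.44). Dgat1 stood at 10.3 CPM in WT-labelled hepatocytes and 7.62 CPM (13 UMIs) in plain WT-labelled hepatocytes, a ratio of 1.35 (0.749 to 2.63), on few UMIs. Dgat1 and Dgat2 were thus on the higher side, and the members Gpam and Agpat2, of earlier steps, on the lower. Gpat4, an acyltransferase that is not a member, was on the higher side, as given below. Gpam stood at 115 CPM in WT-labelled hepatocytes and 169 CPM (289 UMIs) in plain WT-labelled hepatocytes, a ratio of 0.678 (0.594 to 0.776). Agpat2 stood at 101 CPM in WT-labelled hepatocytes and 174 CPM (296 UMIs) in plain WT-labelled hepatocytes, a ratio of 0.581 (0.508 to 0.665). Mogat1 had 4 UMIs in WT-labelled and 7 UMIs in plain WT-labelled hepatocytes.

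Uptake and activation genes also split. Slc27a2 stood at 631 CPM in WT-labelled hepatocytes and 406 CPM (692 UMIs) in plain WT-labelled hepatocytes, a ratio of 1.55 (1.44 to 1.68). Acsl1 stood at 697 CPM in WT-labelled hepatocytes and 299 CPM (510 UMIs) in plain WT-labelled hepatocytes, a ratio of 2.33 (2.13 to 2.56). Cd36 stood at 50.5 CPM in WT-labelled hepatocytes and 114 CPM (195 UMIs) in plain WT-labelled hepatocytes, a ratio of 0.442 (0.372 to 0.525). The acyl-CoA synthetases were higher and the surface transporter lower with the ApoE background.

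The perilipins went in opposite directions. Plin2 stood at 326 CPM in WT-labelled hepatocytes and 777 CPM (1325 UMIs) in plain WT-labelled hepatocytes, a ratio of 0.420 (0.393 to 0.449). Plin5 stood at 95.1 CPM in WT-labelled hepatocytes and 28.2 CPM (48 UMIs) in plain WT-labelled hepatocytes, a ratio of 3.38 (2.52 to 4.62). Plin4 stood at 11.3 CPM in WT-labelled hepatocytes and 2.93 CPM (5 UMIs) in plain WT-labelled hepatocytes, a ratio of 3.85 (1.60 to 12.1), resting on 5 UMIs in plain WT-labelled cells. Plin4 and Plin5 are neighbours on chromosome 17, both on the minus strand (56100591 to 56109803 and 56111601 to 56117596, GENCODE M21, GRCm38), and Plin2 lies on chromosome 4. Their promoters are shown because the pair was higher and Plin2 lower in the same cells, with Fasn as a synthesis gene that was lower. The letters are the 250 bases before the start in RefSeq (GRCm38.p6), on the minus strand, at chr17:56109783-56110032 for Plin4, chr17:56117549-56117798 for Plin5, chr4:86670060-86670309 for Plin2 and chr11:120824548-120824797 for Fasn. Capitals mark CCAAT or, on the other strand, ATTGG.
Plin4: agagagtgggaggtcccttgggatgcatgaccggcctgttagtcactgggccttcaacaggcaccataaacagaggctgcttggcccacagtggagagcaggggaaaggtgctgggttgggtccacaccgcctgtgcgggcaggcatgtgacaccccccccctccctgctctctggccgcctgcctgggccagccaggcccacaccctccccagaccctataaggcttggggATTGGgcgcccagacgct
Plin5: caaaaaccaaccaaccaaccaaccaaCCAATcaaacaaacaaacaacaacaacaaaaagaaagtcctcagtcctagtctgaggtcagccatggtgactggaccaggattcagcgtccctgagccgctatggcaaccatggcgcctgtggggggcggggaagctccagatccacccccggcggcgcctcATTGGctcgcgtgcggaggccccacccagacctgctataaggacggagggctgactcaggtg
Plin2: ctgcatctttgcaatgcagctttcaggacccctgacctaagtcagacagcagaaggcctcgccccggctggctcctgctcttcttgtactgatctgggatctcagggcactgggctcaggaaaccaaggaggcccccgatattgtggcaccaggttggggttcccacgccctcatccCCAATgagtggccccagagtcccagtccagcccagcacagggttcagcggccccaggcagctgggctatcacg
Fasn: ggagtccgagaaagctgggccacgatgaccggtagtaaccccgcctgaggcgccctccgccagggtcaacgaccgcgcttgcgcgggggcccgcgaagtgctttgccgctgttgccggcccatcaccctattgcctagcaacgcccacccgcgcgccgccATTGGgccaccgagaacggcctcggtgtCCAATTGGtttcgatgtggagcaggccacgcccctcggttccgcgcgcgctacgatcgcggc

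Of the 39 members, 34 had a promoter in the RefSeq table, and Scd1, Dgat1, Dgat2, Fads1 and Cidea did not. CCAAT, on either strand, was found in 16 of the 34 windows (47.1%), and in 33.8% of the 32851 promoter windows of the same length in the table. Plin4 has its match 18 bases before the start, Plin2 at 73 bases, Plin5 at 224 and 62 bases, and Fasn has 3 matches between 90 and 59 bases, the last 2 of them overlapping. The window of Plin5 is that of the upstream of 2 starts in the table. CACGTG, a palindrome known as an E-box, was in 2 windows (Elovl5 and Mlxipl), or 5.88%, and in 6.02% of all windows. TCACNCCAC, on either strand, was in 2 windows (Mlxipl and Acsl1), or 5.88%, and in 1.05% of all windows. The motifs were searched apart, so matches may overlap. Perilipins that were higher and the perilipin that was lower with the ApoE background thus both carry CCAAT in these windows.

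The remaining droplet genes were mostly lower. Hsd17b13 stood at 179 CPM in WT-labelled hepatocytes and 536 CPM (914 UMIs) in plain WT-labelled hepatocytes, a ratio of 0.334 (0.307 to 0.363). Cideb stood at 116 CPM in WT-labelled hepatocytes and 134 CPM (229 UMIs) in plain WT-labelled hepatocytes, a ratio of 0.867 (0.750 to 1.005). Cidec had 27 UMIs in WT-labelled and 12 UMIs in plain WT-labelled hepatocytes, and Cidea had 2 and 0 UMIs. The Fitm genes, both of which help bud droplets from the endoplasmic reticulum, went in opposite directions. Fitm1 stood at 20.8 CPM in WT-labelled hepatocytes and 56.3 CPM (96 UMIs) in plain WT-labelled hepatocytes, a ratio of 0.369 (0.286 to 0.477). Fitm2 stood at 36.4 CPM in WT-labelled hepatocytes and 17.6 CPM (30 UMIs) in plain WT-labelled hepatocytes, a ratio of 2.07 (1.42 to 3.12). Among the lipolysis genes, G0s2 stood at 297 CPM in WT-labelled hepatocytes and 413 CPM (705 UMIs) in plain WT-labelled hepatocytes, a ratio of 0.718 (0.660 to 0.781). Pnpla2, its target, was on the other side of 1. Pnpla2 stood at 53.4 CPM in WT-labelled hepatocytes and 42.8 CPM (73 UMIs) in plain WT-labelled hepatocytes, a ratio of 1.246 (0.972 to 1.62). Pnpla3 stood at 1.60 CPM in WT-labelled hepatocytes and 21.1 CPM (36 UMIs) in plain WT-labelled hepatocytes, a ratio of 0.0756 (0.0377 to 0.144), and Hilpda had 10 UMIs in WT-labelled and 13 UMIs in plain WT-labelled hepatocytes.

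Hepatocyte clusters with at least 20 cells gave a second view, with 10 clusters of the WT-labelled and 5 of the plain WT-labelled library. For 3 of 35 members (Lpin1, Plin5 and Fitm2) every WT-labelled cluster was above every plain WT-labelled cluster, where 1.34% of all genes were. For 5 members (Scd1, Elovl6, Elovl5, Acss2 and Plin2) every WT-labelled cluster was below, where 2.36% of all genes were. Clusters of 1 library are not replicates and share its preparation. Scd1 ran over 1006 to 1936 CPM (median 1169.9) in WT-labelled clusters and 5554 to 17601 CPM (median 11294) in plain WT-labelled ones. Lpin1 ran over 563 to 1255 CPM (median 809) in WT-labelled clusters and 26.4 to 154 CPM (median 58.7) in plain WT-labelled ones. Neither gene's ranges touched. Plin2 ran over 262 to 389.9 CPM (median 318) in WT-labelled clusters and 659 to 887 CPM (median 783) in plain WT-labelled ones. Hsd17b13 ran over 47.4 to 370.1 CPM (median 180.4) in WT-labelled clusters and 78.3 to 618 CPM (median 535) in plain WT-labelled ones. Hsd17b13 overlapped between the libraries, and its level varied among the clusters of each.

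**Figure D3:**
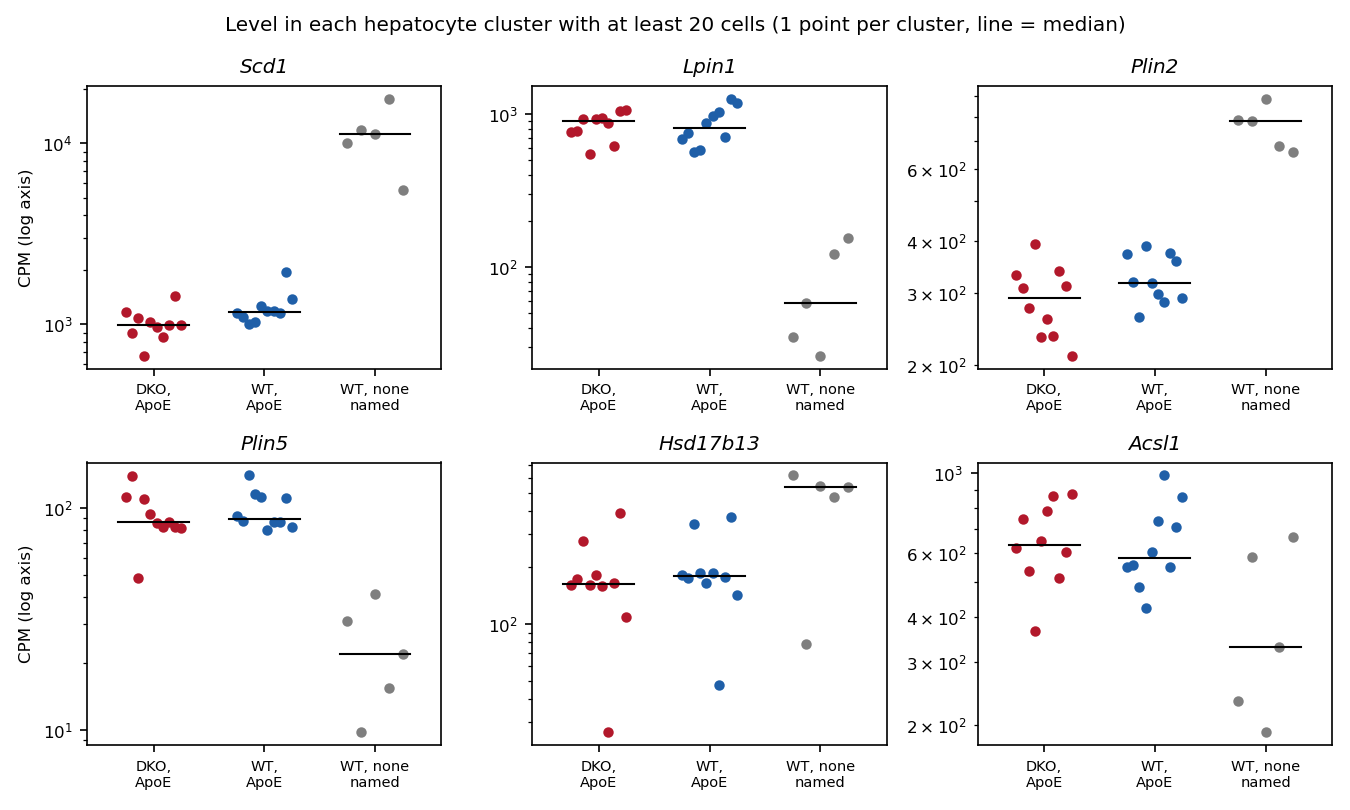
Level of 6 members in each hepatocyte cluster with at least 20 cells, in CPM on log axes; each point is 1 cluster of 1 library and the line is the median over clusters. Scd1 and Plin2 are higher, and Lpin1 and Plin5 lower, in every plain WT-labelled cluster than in any cluster of both ApoE libraries, while Hsd17b13 and Acsl1 overlap.

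One cluster of each table was led by Glul, cluster 5 on the ApoE background (303 WT-labelled cells) and cluster 12 of the other table (29 plain WT-labelled cells). In this pair 9 of 32 members were higher and 16 were lower past the set fold, where 43.6% and 28.7% of 3550 genes were. Lpin1 had 1346 UMIs in WT-labelled cluster 5 and 6 UMIs in plain WT-labelled cluster 12, a ratio of 17.5 (8.02 to 47.8). Scd1 had a ratio of 0.101 (0.0936 to 0.109). Both were close to their ratios in the whole class. Fasn had a ratio of 0.225 (0.167 to 0.307), lower than the 0.468 of the whole class.

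Shares of cells with a UMI gave the same order for Scd1 and Lpin1. Scd1 was detected in 71.4% of DKO-labelled, 81.8% of WT-labelled and 100% of plain WT-labelled hepatocytes, and in 57.1%, 67.0% and 100% after each cell was thinned to 1000 UMIs. That thinning left out 925, 301 and 16 shallower cells. Scd1 was also detected outside the hepatocyte class. T cells of the ApoE livers, with a median of 1887 UMIs labelled DKO and 2685 labelled WT, had a Scd1 UMI in 17.7% of DKO-labelled and 35.3% of WT-labelled thinned cells. Cluster 2 of the plain WT-labelled library, named hepatocytes by the authors and led by haemoglobin genes, had a median of 1522 UMIs and a Scd1 UMI in 100% of thinned cells. This cluster also carried hepatocyte RNA, with Alb at 38265.9 CPM beside 37053.5 CPM in plain WT-labelled hepatocytes. At 100% a share cannot order cells by level. Lpin1 was detected in 55.8% of DKO-labelled, 56.2% of WT-labelled and 3.68% of plain WT-labelled thinned hepatocytes, in 14.1% of DKO-labelled and 18.8% of WT-labelled thinned T cells, and in 0.926% of thinned cells of cluster 2. Before thinning the Lpin1 shares of hepatocytes were 70.5%, 72.1% and 15.6%.

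Macrophage markers were the marker list that set the libraries apart most. They summed to 6.84 CPM in WT-labelled hepatocytes, with all 11 in the table detected, and to 321 CPM in plain WT-labelled hepatocytes, with all 13 detected. Endothelial markers summed to 6.27 CPM with Cdh5 and Emcn at 0 in WT-labelled hepatocytes, and to 45.7 CPM with all 9 detected in plain WT-labelled ones. The part of such RNA in the ratios of Cd36, Plin2 and other members was not tested.

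Of the other pathway genes, 39 had enough UMIs, with 10 higher and 16 lower past the set fold and a median log2 ratio of −0.12. Gpat4, an acyltransferase of the endoplasmic reticulum, stood at 109.7 CPM in WT-labelled hepatocytes and 45.7 CPM (78 UMIs) in plain WT-labelled hepatocytes, a ratio of 2.40 (1.90 to 3.06). Lpin2, a phosphatase of the Lpin1 family, stood at 755 CPM in WT-labelled hepatocytes and 325 CPM (554 UMIs) in plain WT-labelled hepatocytes, a ratio of 2.32 (2.13 to 2.54). Scap stood at 24.4 CPM in WT-labelled hepatocytes and 10.6 CPM (18 UMIs) in plain WT-labelled hepatocytes, a ratio of 2.31 (1.43 to 3.98). The lowest included genes also known from macrophages and fat cells. Lpl, lipoprotein lipase, had 0 UMIs in WT-labelled and 71 UMIs (41.6 CPM) in plain WT-labelled hepatocytes, at least 122-fold lower against a floor of 3 counts in the WT-labelled class. Pparg, a transcription factor of fat storage, stood at 6.39 CPM in WT-labelled hepatocytes and 32.8 CPM (56 UMIs) in plain WT-labelled hepatocytes, a ratio of 0.194 (0.132 to 0.287). Plin3 stood at 16.9 CPM in WT-labelled hepatocytes and 53.4 CPM (91 UMIs) in plain WT-labelled hepatocytes, a ratio of 0.316 (0.242 to 0.415).

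Within the ApoE livers, many members differed between hepatocyte clusters. Cluster 7 was led by Cyp2f2, a gene of periportal hepatocytes, and cluster 5 by Glul, a gene of the cells around the central vein. The cells of both clusters were grouped by the authors from the same counts, so the values describe the clusters and test nothing. Of 32 members with enough UMIs, 15 were higher in cluster 7 past the set fold in both libraries and 5 were lower, where 11.2% and 17.1% of 4934 genes were. Acly and Hsd17b13 were among the genes that lead cluster 7. Fasn stood at 307 CPM in cluster 7 and 117 CPM in cluster 5 of the library labelled DKO, and its ratio of cluster 7 over 5 was 2.61 (2.23 to 3.07) in the library labelled DKO and 2.79 (2.33 to 3.35) in that labelled WT. Acaca had a ratio of 4.13 (3.41 to 5.05) in the library labelled DKO and 3.22 (2.66 to 3.91) in that labelled WT. Pklr had a ratio of 3.27 (2.34 to 4.66) in the library labelled DKO and 3.06 (2.04 to 4.69) in that labelled WT. The synthesis genes Acacb, Acly, Elovl6, Elovl5, Me1, Acss2 and Scd1 were likewise higher in cluster 7 in both libraries, as were Srebf1, Thrsp, Mid1ip1, Plin2 and Hsd17b13. Those lower in cluster 7 were Cideb, G0s2, Fitm1, Fitm2 and Acsl1. Fitm1 had 1 UMI in cluster 7 and 84 UMIs in cluster 5 of the library labelled DKO, and 3 and 62 UMIs in that labelled WT. G0s2 had a ratio of 0.605 (0.520 to 0.703) in the library labelled DKO and 0.772 (0.636 to 0.935) in that labelled WT. Acsl1 had a ratio of 0.698 (0.649 to 0.751) in the library labelled DKO and 0.718 (0.656 to 0.785) in that labelled WT. Cd36 was on opposite sides of 1 with intervals that left it out, with a ratio of 1.44 (1.11 to 1.88) in the library labelled DKO and 0.609 (0.427 to 0.859) in that labelled WT. Cluster 7 held 14.4% of DKO-labelled and 5.33% of WT-labelled hepatocytes.

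**Figure D4:**
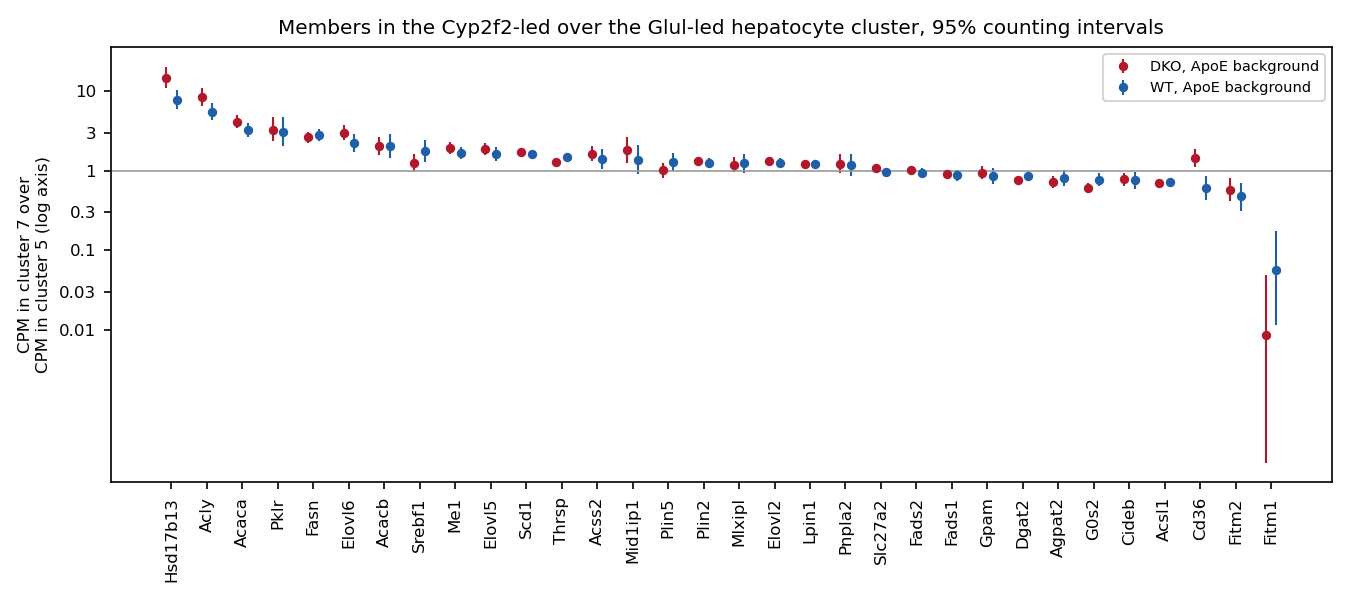
CPM in the Cyp2f2-led cluster 7 over CPM in the Glul-led cluster 5, on a log axis, for each member with at least 50 UMIs in each library, with 95% counting intervals. Members are ordered by the WT-labelled ratio, from Hsd17b13 (14.6 in the library labelled DKO, 7.81 in that labelled WT) to Fitm1 (0.00858 and 0.0566), and both libraries lie on the same side of 1 for the 15 higher and 5 lower members and on opposite sides for Cd36, Fads2 and Slc27a2.

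In Kupffer cells and T cells of the liver, most members with enough UMIs were lower in the library labelled DKO, and so were hepatocyte markers. In Kupffer cells, the macrophages of the liver, 8 of 8 members with enough UMIs were lower in the library labelled DKO and 0 were higher, where 39.3% and 30.6% of 1094 genes were. Lpin1 stood at 191 CPM (40 UMIs) in DKO-labelled and 514 CPM (68 UMIs) in WT-labelled cells, a ratio of 0.372 (0.245 to 0.557). G0s2 stood at 115 CPM (24 UMIs) in DKO-labelled and 318 CPM (42 UMIs) in WT-labelled cells, a ratio of 0.361 (0.209 to 0.610). Scd1 stood at 368 CPM (77 UMIs) in DKO-labelled and 764 CPM (101 UMIs) in WT-labelled cells, a ratio of 0.482 (0.354 to 0.655). These 3 had the lowest ratios, followed by Thrsp at 0.517 (0.365 to 0.731) and Slc27a2 at 0.584 (0.360 to 0.942). The intervals of Plin2, Dgat2 and Acsl1 held 1. Markers of other cells differed in the same class. The 12 hepatocyte markers, all detected, summed to 34700 CPM in DKO-labelled and 72509 CPM in WT-labelled Kupffer cells, and Alb stood at 46.2% and 79.4% of its hepatocyte level. The 10 T cell markers summed to 593 CPM with all detected in DKO-labelled cells and to 144 CPM with Cd3e, Trbc2 and Trdc at 0 in WT-labelled ones. The 7 erythroid markers summed to 81.3 CPM in DKO-labelled and 3222 CPM in WT-labelled cells, and Hbb-bs stood at 33.5 CPM and 2186 CPM. Dcn, a fibroblast gene and among the leading genes of this cluster, stood at 698 CPM in DKO-labelled and 711 CPM in WT-labelled cells. Reln stood at 335 CPM and 348 CPM, and Lrat at 81.3 CPM and 30.3 CPM, so the class did not hold macrophage RNA alone. The 11 macrophage markers in the table, all detected, summed to 2888 CPM in DKO-labelled and 2489 CPM in WT-labelled cells, while Clec4f, a Kupffer cell marker, stood at 105 CPM and 325 CPM. The part of these differences in the members' ratios was not tested.

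In T cells 11 of 15 members were lower and 2 were higher, where 28.8% and 29.7% of 3382 genes were. Scd1 stood at 213 CPM (156 UMIs) in DKO-labelled and 528 CPM (122 UMIs) in WT-labelled cells, a ratio of 0.403 (0.316 to 0.516). Its level was 20.2% of the hepatocyte level in DKO-labelled and 40.8% in WT-labelled T cells. Scd1 had the lowest ratio of these members, followed by G0s2 at 0.496 (0.332 to 0.748), Slc27a2 at 0.498 (0.354 to 0.707), Thrsp at 0.526 (0.407 to 0.682) and Acsl1 at 0.534 (0.387 to 0.744). Lpin1 had a ratio of 0.595 (0.421 to 0.849) and Plin2 of 0.612 (0.396 to 0.962). The intervals of the 4 other lower members and of Elovl5 and Fads1, the 2 higher ones, held 1. The 12 hepatocyte markers, all detected, summed to 23649 CPM in DKO-labelled and 49014 CPM in WT-labelled T cells, and Alb stood at 32.1% and 56.8% of its hepatocyte level. The 10 T cell markers, all detected, summed to 3070 CPM in DKO-labelled and 3228 CPM in WT-labelled cells. The 7 erythroid markers summed to 1109 CPM in DKO-labelled and 17.3 CPM in WT-labelled cells. The part of hepatocyte or erythroid RNA in the members' ratios was not tested. In B cells 4 of 10 members were lower and 1 was higher, where 26.0% and 44.9% of 2278 genes were. In liver endothelial cells 3 of 8 were lower and 0 were higher, where 43.9% and 18.8% of 701 genes were. Alb had a ratio of 0.749 (0.717 to 0.781) in B cells and 0.672 (0.640 to 0.706) in endothelial cells. Cd36 in endothelial cells, which are known to express it, stood at 283 CPM in DKO-labelled and 289 CPM in WT-labelled cells, or 577% and 573% of the hepatocyte level.

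The third comparison set the aorta labelled DKO against the aorta labelled WT, both on the ApoE background. In smooth muscle cells, the authors' clusters VS1, VS2 and VS3, 13 of 39 members had enough UMIs. Me1, Dgat1, Scd1 and Srebf1 were lower in DKO-labelled cells past the set fold and no member was higher, where 23.9% and 13.7% of 6679 genes were. Srebf1 was above 1 with cells weighted alike (1.06) or clusters weighted alike (1.01). At a minimum of 200 UMIs 2 members remained, and none of the lower ones was among them, so that setting could not check these calls. The median log2 ratio was −0.088 for the members and −0.075 for all genes. There were 1034 DKO-labelled cells (1621698 UMIs) and 636 WT-labelled cells (1065545 UMIs). VS3 held 351 of the DKO-labelled and 72 of the WT-labelled ones. All 8 smooth muscle markers were detected, with summed levels of 30166 CPM in DKO-labelled and 28573 CPM in WT-labelled cells. Epn1 had a ratio of 0.965 (0.603 to 1.56) and Epn2 of 1.31 (1.05 to 1.64). Neither was lower past the fold in DKO-labelled smooth muscle cells.

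Me1 stood at 41.9 CPM (68 UMIs) in DKO-labelled and 94.8 CPM (101 UMIs) in WT-labelled smooth muscle cells, a ratio of 0.442 (0.320 to 0.608). Scd1 stood at 27.1 CPM (44 UMIs) in DKO-labelled and 50.7 CPM (54 UMIs) in WT-labelled smooth muscle cells, a ratio of 0.535 (0.351 to 0.812). Srebf1 stood at 17.3 CPM (28 UMIs) in DKO-labelled and 22.5 CPM (24 UMIs) in WT-labelled smooth muscle cells, a ratio of 0.767 (0.428 to 1.38). The interval of Srebf1 includes 1, and those of Me1 and Scd1 do not. Dgat1 stood at 24.0 CPM (39 UMIs) in DKO-labelled and 50.7 CPM (54 UMIs) in WT-labelled smooth muscle cells, a ratio of 0.475 (0.306 to 0.730). In cluster VS1 alone, with 357 DKO-labelled and 338 WT-labelled cells, Me1 had a ratio of 0.507 (0.337 to 0.755) and Dgat1 of 0.469 (0.281 to 0.767). Scd1 had a ratio of 0.583 (0.317 to 1.05) in VS1, with an interval that held 1. In VS3 Scd1 stood at 49.7 CPM (12 UMIs) in DKO-labelled and 290 CPM (14 UMIs) in WT-labelled cells. Me1 stood there at 16.6 CPM (4 UMIs) and 331 CPM (16 UMIs). In VS1 10 members had enough UMIs, with 1 higher and 3 lower, where 16.5% and 21.5% of 5483 genes were.

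The other synthesis genes of smooth muscle stayed within the set fold. Acaca stood at 38.8 CPM (63 UMIs) in DKO-labelled and 41.3 CPM (44 UMIs) in WT-labelled smooth muscle cells, a ratio of 0.941 (0.630 to 1.42). Acly stood at 50.6 CPM (82 UMIs) in DKO-labelled and 59.1 CPM (63 UMIs) in WT-labelled smooth muscle cells, a ratio of 0.855 (0.608 to 1.21). Elovl5 stood at 22.2 CPM (36 UMIs) in DKO-labelled and 25.3 CPM (27 UMIs) in WT-labelled smooth muscle cells, a ratio of 0.876 (0.517 to 1.5004). The 95% interval of each held 1. Fads2 stood at 35.1 CPM (57 UMIs) in DKO-labelled and 33.8 CPM (36 UMIs) in WT-labelled smooth muscle cells, a ratio of 1.04 (0.674 to 1.63). Mid1ip1 stood at 50.6 CPM (82 UMIs) in DKO-labelled and 47.9 CPM (51 UMIs) in WT-labelled smooth muscle cells, a ratio of 1.06 (0.736 to 1.53). Dgat2 stood at 25.9 CPM (42 UMIs) in DKO-labelled and 21.6 CPM (23 UMIs) in WT-labelled smooth muscle cells, a ratio of 1.20 (0.705 to 2.09). These also had intervals that held 1. Plin4, the perilipin with the most UMIs in smooth muscle, stood at 84.5 CPM (137 UMIs) in DKO-labelled and 75.1 CPM (80 UMIs) in WT-labelled smooth muscle cells, a ratio of 1.13 (0.848 to 1.502). Pnpla2 stood at 56.1 CPM (91 UMIs) in DKO-labelled and 49.7 CPM (53 UMIs) in WT-labelled smooth muscle cells, a ratio of 1.13 (0.795 to 1.61). Acsl1 stood at 106 CPM (172 UMIs) in DKO-labelled and 96.7 CPM (103 UMIs) in WT-labelled smooth muscle cells, a ratio of 1.10 (0.855 to 1.41). Of the 26 members under 50 UMIs, Slc27a2, Cidec and Mogat1 had 0 UMIs in both libraries, and the others had 1 to 49 UMIs over both, Fasn and Plin2 being at the top with 29 and 30 UMIs in DKO-labelled and 20 and 19 UMIs in WT-labelled cells.

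Markers of other cells differed in these smooth muscle classes. The 7 chondrocyte markers, all detected, summed to 165 CPM in DKO-labelled and 649 CPM in WT-labelled cells. Hepatocyte markers summed to 12.9 CPM with 5 of 9 at 0, including Alb and Apob, in DKO-labelled cells and to 60.1 CPM with 2 of 9 at 0 in WT-labelled cells, where Alb had 13 UMIs. Their part in the lower Scd1 and Me1 was not tested. Of the other pathway genes 26 had enough UMIs, with 5 higher and 8 lower past the set fold and a median log2 ratio of 0.029. Fabp4, a fatty acid binding protein of fat cells, macrophages and vessels, stood at 210.3 CPM (341 UMIs) in DKO-labelled and 148 CPM (158 UMIs) in WT-labelled smooth muscle cells, a ratio of 1.42 (1.17 to 1.72). Mbtps1, the protease that cuts SREBP, stood at 46.2 CPM (75 UMIs) in DKO-labelled and 33.8 CPM (36 UMIs) in WT-labelled smooth muscle cells, a ratio of 1.37 (0.908 to 2.10). Gpat4 and Aup1, a droplet protein, shared a ratio of 1.31 (0.750 to 2.37) on 60 UMIs each. The lowest were droplet and activation genes. Hsd17b11, a droplet protein, stood at 16.6 CPM (27 UMIs) in DKO-labelled and 31.0 CPM (33 UMIs) in WT-labelled smooth muscle cells, a ratio of 0.538 (0.311 to 0.922). Rab18, a GTPase found on droplets, stood at 91.9 CPM (149 UMIs) in DKO-labelled and 161 CPM (172 UMIs) in WT-labelled smooth muscle cells, a ratio of 0.569 (0.454 to 0.713). Acsl3, an acyl-CoA synthetase of nascent droplets, stood at 40.1 CPM (65 UMIs) in DKO-labelled and 66.6 CPM (71 UMIs) in WT-labelled smooth muscle cells, a ratio of 0.602 (0.423 to 0.854).

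Outside smooth muscle, the aorta was compared cluster by cluster, with the authors' numbering, where each library had 50 cells or more. Among these clusters Plin2 was highest in the macrophage clusters MP1 and MP2. Macrophages are known to fill with droplets in atherosclerosis. Plin2 stood at 378 CPM (43 UMIs) in DKO-labelled and 206 CPM (40 UMIs) in WT-labelled cells of MP1, a ratio of 1.84 (1.17 to 2.90). It stood at 449 CPM (65 UMIs) in DKO-labelled and 180.3 CPM (17 UMIs) in WT-labelled cells of MP2, a ratio of 2.49 (1.44 to 4.53). In both clusters Plin2 was the 1 member with enough UMIs, and 14.1% of 918 genes in MP1 and 30.6% of 821 genes in MP2 were higher past the set fold. Complement C1q genes and Lyz2 or Cd14 were among the leading genes of these clusters. Leaving out the cell with the most Plin2 UMIs in each library gave 1.77 (1.09 to 2.89) in MP1 and 2.003 (1.10 to 3.86) in MP2, where 1 DKO-labelled cell held 18 of the 65 UMIs. In the small cluster MP3, with 14 DKO-labelled and 29 WT-labelled cells, Plin2 stood at 276 CPM in DKO-labelled and 364 CPM in WT-labelled cells. Higher Plin2 was not limited to macrophages. Summed over the clusters the authors call T cells, it stood at 94.1 CPM (44 UMIs) in DKO-labelled and 33.8 CPM (20 UMIs) in WT-labelled cells. That ratio was 2.78 (1.60 to 4.98), where 18.4% of 3661 genes were higher past the set fold. Without the cell with the most UMIs in each library it was 2.45 (1.30 to 4.81). Most of these UMIs lay in cluster TC1, with 37 in DKO-labelled and 12 in WT-labelled cells, while cluster TC2 had 3 in each library. The sum also holds cluster TC4, led by Upk3b, with 1 DKO-labelled and 25 WT-labelled cells.

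G0s2 was highest, among these, in the clusters the authors call adipocytes. It stood at 232 CPM (148 UMIs) in DKO-labelled and 134 CPM (90 UMIs) in WT-labelled cells of AP1, a ratio of 1.73 (1.32 to 2.28). It stood at 97.8 CPM (36 UMIs) in DKO-labelled and 49.5 CPM (19 UMIs) in WT-labelled cells of AP2, a ratio of 1.98 (1.10 to 3.65). AP1 had 5 members with enough UMIs, 1 higher and 1 lower, where 21.4% and 21.1% of 4496 genes were. AP2 had 2 members with enough UMIs, G0s2 higher and Acsl1 lower, where 17.8% and 25.7% of 2712 genes were. Acsl1 stood at 51.6 CPM (19 UMIs) in DKO-labelled and 112 CPM (43 UMIs) in WT-labelled cells of AP2, a ratio of 0.461 (0.254 to 0.808). Without the cell of AP2 with the most G0s2 UMIs in each library the ratio was 1.53 (0.796 to 3.03). In the smaller cluster MP4, led by the neutrophil genes S100a9 and S100a8 and with 20 cells in each library, G0s2 stood at 1042 CPM (45 UMIs) in DKO-labelled and 476 CPM (26 UMIs) in WT-labelled cells. Summed over AP1 and AP2, 15 members had enough UMIs, with 1 higher and 8 lower past the set fold, where 18.7% and 19.3% of 6098 genes were. G0s2 was the higher one, at 1.77 (1.39 to 2.27), and Acsl1, at 0.476 (0.308 to 0.723), was the one of the 8 lower members whose interval left out 1. The name of AP1 and AP2 was not borne out by defining fat cell markers. Adipoq had 4 UMIs in DKO-labelled and 3 UMIs in WT-labelled cells of both clusters together, and Lep, Retn and Cfd had 0 in both. Dcn, a fibroblast gene, stood at 8701 CPM in DKO-labelled and 7653 CPM in WT-labelled cells. In the fibroblast cluster FB1 2 of 5 members were higher and 1 was lower, where 20.1% and 29.7% of 4023 genes were, and the interval of each of these 3 held 1.

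Hilpda and Dgat1 were highest, in both libraries, in TC1, a T cell cluster led by Il23r and Icos. Hilpda stood at 691 CPM (150 UMIs) in DKO-labelled and 366 CPM (89 UMIs) in WT-labelled cells of TC1, a ratio of 1.89 (1.44 to 2.48). Elovl5 stood at 239 CPM (52 UMIs) in DKO-labelled and 57.6 CPM (14 UMIs) in WT-labelled cells of TC1, a ratio of 4.16 (2.27 to 8.12). Dgat1 stood at 681 CPM (148 UMIs) in DKO-labelled and 625 CPM (152 UMIs) in WT-labelled cells of TC1, a ratio of 1.09 (0.863 to 1.38). Of these 3, the ones with enough UMIs, Hilpda and Elovl5 were higher and none was lower, where 22.6% and 28.2% of 1764 genes were. TC1 held 62 DKO-labelled and 83 WT-labelled cells. Cells with a UMI numbered 25 and 23 for Hilpda and 20 and 11 for Elovl5 in DKO-labelled and WT-labelled TC1. Leaving out the cell with the most UMIs in each library gave 1.95 (1.45 to 2.63) for Hilpda and 4.64 (2.29 to 10.4) for Elovl5.

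The clusters the authors call hematopoietic stem cells were led by other genes, HS1 by Taco1 and Fancc, HS2 by Mmp13 and Hp, and HS3 by the cartilage genes Col2a1 and Chad. In HS1 4 of 7 members were higher and 1 was lower, where 36.0% and 25.2% of 3497 genes were. Fads2 stood at 109 CPM (84 UMIs) in DKO-labelled and 31.9 CPM (6 UMIs) in WT-labelled cells of HS1, a ratio of 3.41 (1.502 to 9.55). Dgat1 stood at 102 CPM (79 UMIs) in DKO-labelled and 47.8 CPM (9 UMIs) in WT-labelled cells of HS1, a ratio of 2.14 (1.07 to 4.85). The share of members that were higher in HS1 rests on few WT-labelled UMIs and on 75 WT-labelled cells, against 254 DKO-labelled ones. In HS2 0 of 5 members were higher and 2 were lower, where 22.9% and 20.1% of 3371 genes were. Acsl1 stood at 79.8 CPM (39 UMIs) in DKO-labelled and 133 CPM (64 UMIs) in WT-labelled cells of HS2, a ratio of 0.6004 (0.393 to 0.908). Summed over all clusters of that name, with 541 DKO-labelled and 549 WT-labelled cells, 9 of 17 members were higher and 1 was lower, where 34.4% and 27.8% of 7345 genes were. Fads2 had a ratio of 3.32 (2.21 to 5.12), Dgat2 of 2.36 (1.49 to 3.84) and Dgat1 of 2.29 (1.58 to 3.37) in that sum. Elovl6, at 2.26 (1.23 to 4.35), Lpin1, at 2.15 (1.30 to 3.69), and Fasn, at 1.69 (1.02 to 2.84), were also higher, as were Acaca, at 1.41 (1.05 to 1.88), and Acly, at 1.39 (1.04 to 1.86). The intervals of Pnpla2, also higher, and Scd1, the lower one, held 1. The sum mixes clusters with unequal shares, since HS1 gave 254 DKO-labelled and 75 WT-labelled cells and HS3 gave 96 and 257. Endothelial cells of the aorta had no member with 50 UMIs over both libraries.

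**Figure D5:**
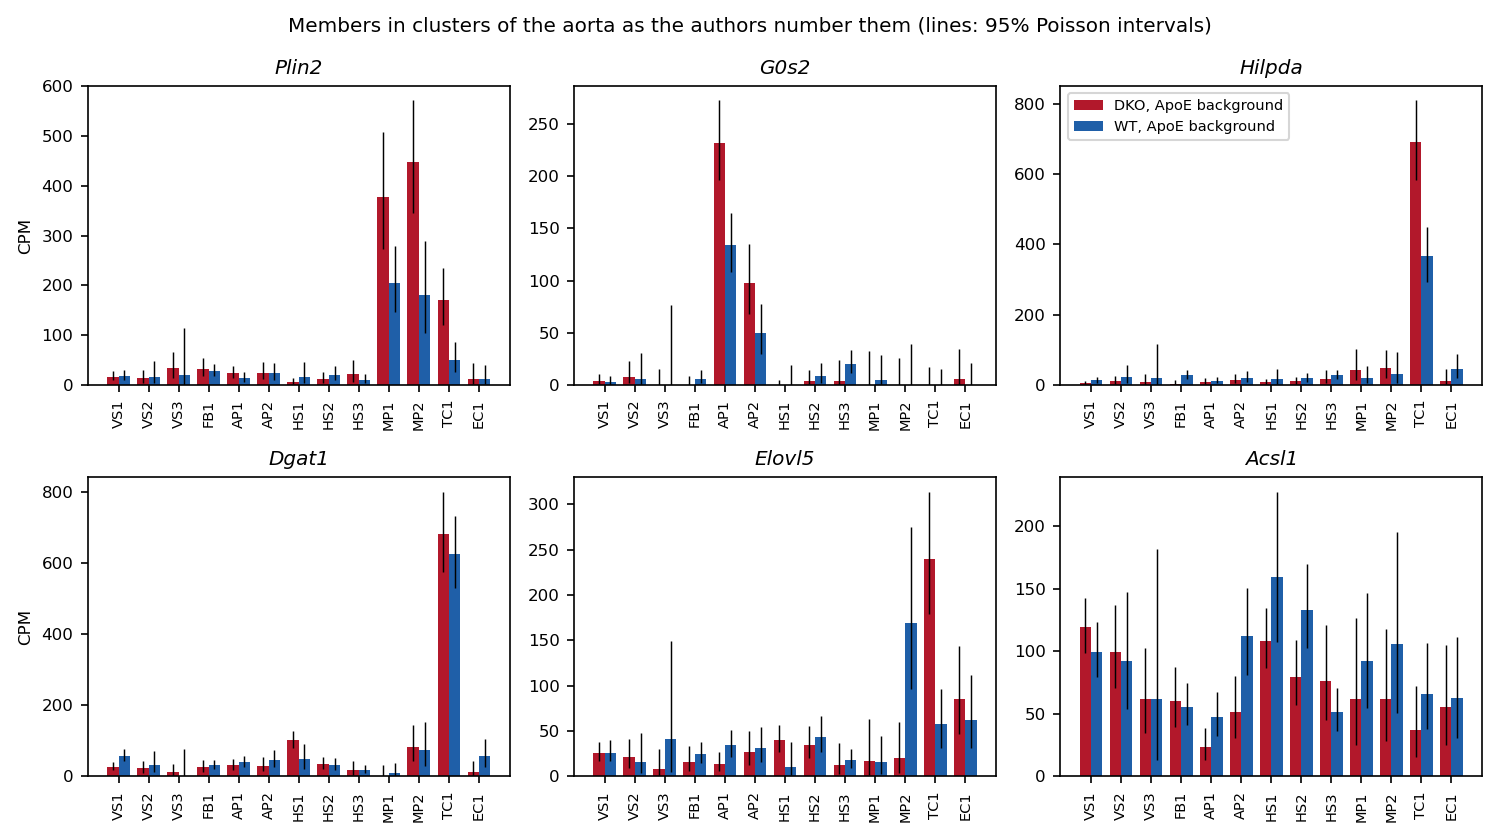
Level of 6 members in clusters of the aorta, in CPM on linear axes, for the libraries labelled DKO and WT; bars are cluster totals, lines are 95% Poisson intervals, and names are the authors'. Plin2 is highest in MP1 and MP2, G0s2 in AP1 and AP2, and Hilpda, Dgat1 and DKO-labelled Elovl5 in TC1, while Acsl1 is spread over all clusters shown.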

How the data were processed

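The submitters' processing notes name Cell Ranger 7.1.0 and the mouse build mm10. The authors deposited raw UMI counts per gene and cell in 3 tables, with metadata per cell. Cell types, subtypes and cluster numbers are the authors'; 27 other metadata columns per table were not used. The sources used here do not give how cells were filtered, and doublets were not called here. Between the ApoE livers 4 cell barcodes were shared, and 4 between the aortas.

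For each class and library, counts were added up over its cells and divided by the class total (CPM), with exact Poisson intervals. Ratios have exact conditional binomial intervals. With 1 library per group there was no test. CPM sums to a fixed total, so genes that take many UMIs lower all others. A cluster was left out of a class where its 10 leading genes (at least 200 CPM and 2 times the other clusters after adding 20 CPM) held more markers of another class. All genes entered each comparison, and background shares are over genes with at least 50 UMIs, not matched to the UMI counts of the members. For DKO over WT in hepatocytes at a minimum of 200 UMIs, 1 of 33 members was higher and 1 was lower. There 8.92% and 10.0% of 6638 genes were.

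Values are given for every member with at least 50 UMIs in a compared class, in the liver clusters 5, 7 and 8, Kupffer and T cells and aorta clusters for members past the set fold (a ratio of 0.8 or its inverse) whose interval leaves out 1, and for the 3 highest and 3 lowest other pathway genes. Members and lists were chosen with earlier results of these data known. Alternatives changed the fold, the UMI minimum, the scaling, the weighting and the clusters used. Python 3.11.15, numpy 2.4.6, scipy 1.17.1 and pandas 2.3.3 were used, and the calculations were checked on simulated data.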

Additional observations from a re-analysis of the deposited data

Results flagged for a closer look

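Some members lay on one side of 1 in hepatocytes and on the other in a cluster of the aorta, with both intervals leaving out 1. The difference between the tissues was not tested, and each library is alone in its group. G0s2 had a ratio of DKO over WT of 1.73 (1.32 to 2.28) in AP1 and 1.98 (1.10 to 3.65) in AP2, and of 0.663 (0.624 to 0.705) in hepatocytes. Without the cell with the most G0s2 UMIs in each library, the ratio in AP2 was 1.53 (0.796 to 3.03), which held 1. Plin2 had a ratio of 1.84 (1.17 to 2.90) in MP1 and 2.49 (1.44 to 4.53) in MP2, and of 0.855 (0.810 to 0.902) in hepatocytes. Elovl5 had a ratio of 4.16 (2.27 to 8.12) in TC1, and of 0.880 (0.816 to 0.949) in hepatocytes.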

How the results depend on the processing

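No paired analysis was possible because each group has 1 library. For DKO over WT in hepatocytes, 0 of 34 members were higher with all cells the authors call hepatocytes (all genes 12.3%). The same held with cells weighted alike (16.6%) and at a fold of 1.5 (3.40%). With clusters weighted alike 2 of 34 were higher (14.5%). With the total that leaves out mitochondrial and other abundant genes, 3 of 34 were (18.7%). Lower members numbered 2 of 34 with every cell weighted alike (16.8%) and 2 of 36 at 20 UMIs (15.0%). With clusters weighted alike they numbered 5 of 34 (17.0%). In clusters 5, 7 and 8 alone the median log2 ratio was −0.071. Fads2 reversed to 0.987 in cluster 6 alone and G0s2 to 1.07 in cluster 5 alone. With the ApoE background over without, the median was −0.30 with every cell weighted alike, and the counts kept within 1.5 times under the alternatives run. In smooth muscle, 1 of 13 members was higher and 5 were lower with cells weighted alike (all genes 15.6% and 28.9%). The same counts held with clusters weighted alike (24.8% and 25.3%). With that total (18.4% and 17.9%) and after dividing by the median ratio (17.8% and 18.5%), 1 of 13 was higher and 3 were lower. At 20 UMIs 1 of 22 was higher and 9 were lower (17.5% and 27.3%). At 200 UMIs 2 members remained, neither of them called higher or lower, with a median of 0.15. Srebf1 reversed to 1.06 with cells and 1.01 with clusters weighted alike, on 52 UMIs. The comparison of the Glul-led pair and leaving out the cell with the most UMIs were chosen after seeing the data. For single members, values under an alternative stayed close to the reported ratio in 184 cases and moved in 20 for DKO over WT in hepatocytes, in 168 and 7 for the ApoE background over none, and in 73 and 3 in smooth muscle, while in single hepatocyte clusters they stayed close in 78 and moved in 186. Causes were not tested. Depth limits Cidea, Cidec, Mogat1, Hilpda and Pnpla3 in hepatocytes and 26 members in smooth muscle.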
